A study of Mus musculus with 8 samples.

Results

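The 8 genes described here encode the CB1 cannabinoid receptor and the main enzymes that make and break down its lipid ligands: *Cnr1*, *Dagla*, *Daglb*, *Mgll*, *Abhd6*, *Abhd12*, *Napepld* and *Faah*. They were chosen by name, for their place in the pathway, and are 8 of the 38031 genes with counts in the study. All 8 were expressed strongly enough in primary motor cortex (M1) to be tested. None passed the threshold between *Fezf2 shRNA*-treated and control M1 by edgeR. *Abhd6*, which encodes a membrane hydrolase of the endocannabinoid 2-AG, had the largest difference, with a mean of 131% of the control level, and it was the only one of the 8 with an unadjusted p under 0.05. The paper, which used DESeq2 with the same cutoffs, listed *Abhd6* among its changed genes.

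The study lowered *Fezf2*, a transcription factor of deep-layer cortical neurons, in the mature M1 of wild-type male Swiss Webster mice. A lentivirus carrying mCherry and an shRNA in a mir-30 backbone, both driven by a fragment of the rat *Synapsin I* promoter that is active in neurons, was injected at P21 to P25, and M1 was collected at P49 to P53. The treated group received *Fezf2 shRNA* (4 libraries) and the control group *non-silencing shRNA* in the same vector (4 libraries), and each library was treated as 1 animal. The mCherry-marked tissue was dissected with all layers and meninges, so each library also held cells that the vector had not reached, and in such bulk tissue fewer cells of a type and less RNA per cell cannot be told apart. Nothing in the labels ties a library to a named animal, and the p-values measure the spread between these libraries.

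Endocannabinoids are lipid messengers that carry a signal backwards across a synapse. Depolarization and Gq-coupled receptors drive diacylglycerol lipase in the postsynaptic neuron to make 2-arachidonoylglycerol (2-AG), which crosses to the presynaptic terminal and activates CB1, a Gi/o-coupled receptor that lowers transmitter release. In cortex CB1 is known to be densest on the terminals of cholecystokinin-expressing interneurons. The other main endocannabinoid, anandamide, is made in part by NAPE-PLD and is broken down by FAAH.

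The libraries held 54684016 to 58003814 counts on 1 transcript per gene. The deposited counts take in every read between the ends of a transcript, also in its introns, and on both strands. *Fezf2* had 688, 767, 735 and 702 normalized counts in the control libraries and 621, 583, 568 and 593 in the *Fezf2 shRNA* libraries. Every treated library lay below every control library (log2 fold change -0.29, standard error 0.078, adjusted p = 0.0824 by edgeR's quasi-likelihood test), and this difference did not pass the threshold over all genes. With an offset for the genomic span of a gene the value for *Fezf2* was -0.18 (edgeR adjusted p = 0.446), in a span class with a median of -0.12. The paper also measured *Fezf2* in M1 by qPCR and reported a significant decrease. In a cell line it saw less GFP-tagged FEZF2 once the *Fezf2 shRNA* was induced. Of the markers of other cell types, the 5 oligodendrocyte genes were all below 0 with a median log2 fold change of -0.55, and their summed level was 56562 to 104373 normalized counts in controls and 42402 to 70282 in treated libraries. None of the 5 passed the threshold, none was at 0 in any library, and their part in the values below was not tested. The other 5 marker lists, for neurons, GABA neurons, astrocytes, microglia and endothelial cells, had medians between -0.09 and 0.06 over the genes tested. No tested gene in them passed the threshold. Single genes ran wider, from -0.07 (*Slc17a7*) to 0.28 (*Rbfox3*) in neurons and from -0.30 (*Pvalb*) to 0.05 (*Slc32a1*) in GABA neurons. Astrocyte genes ran from -0.32 (*Gfap*) to 0.06 (*Gja1*) and tested microglial genes from -0.07 (*Cx3cr1*) to 0.27 (*C1qa*). Of the 5 endothelial genes only 1, *Tek* (0.06), was expressed strongly enough to be tested. In the fit with no filter *Cldn5* was -0.41, *Pecam1* -0.21, *Flt1* -0.13 and *Kdr* 0.03. The list for GABA neurons includes *Cck*, which cortical pyramidal neurons also express.

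The shRNA itself is shown because it is the agent that differs between the groups. Its 19-nt sense sequence is given 5′ to 3′ with the longest stretch it shares with any of the 8 genes in capitals.
Fezf2 shRNA: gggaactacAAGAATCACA
The whole sequence occurs in *Fezf2*. The capitals, nt 10 to 19 counted from the 5′ end, occur in *Napepld*, in the coding sequence of exon 2 of 5 (chr5:21683179-21683188, minus strand, GRCm38). In the other 7 genes the longest shared stretch was 7 to 9 nt in the sense direction, and over all 40 annotated transcripts of the 8 genes it was 7 to 8 nt in the antisense direction. A shared stretch is a description of letters and not of binding.

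Of the 8 genes, 0 were past the threshold (adjusted p of at most 0.05 and a log2 fold change of at least 0.2 in size), against a background of 2.09% of the 9959 genes tested. Likewise 0 of 8 had treated and control libraries that did not overlap, against 11.8% of all genes tested. At an unadjusted p under 0.05 there was 1 of 8, against 19.6% of all genes tested. DESeq2, run with and without its prior, called 1 of the 8, *Abhd6*, where it called 7.37% and 7.55% of all genes. The log2 fold changes were above 0 for 4 genes and below 0 for 4, from -0.15 to 0.39, and their median was -0.01, beside a median of -0.03 over all genes tested.

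**Figure D1:**
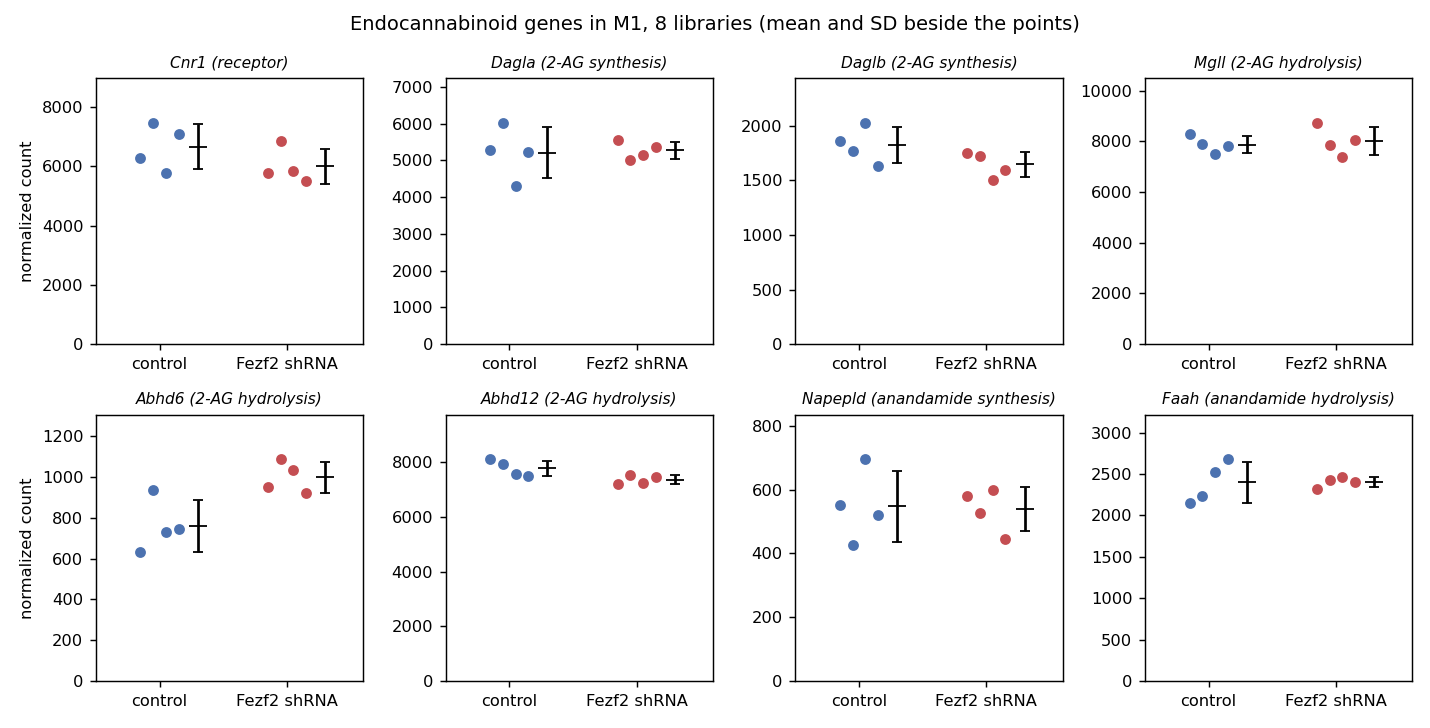
Normalized counts (y axis, from 0) of the 8 genes in the 4 control (blue) and 4 *Fezf2 shRNA* (red) libraries, with the mean and SD of each group in black. The groups overlap in every panel, and the largest difference of means, relative to control, is that of *Abhd6*, with 633 to 938 in controls and 922 to 1086 after *Fezf2 shRNA*.

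*Cnr1* encodes CB1 (ENSMUST00000057188, chr4:33924632-33948831, plus strand, 2 exons). It had 6297, 7477, 5790 and 7098 normalized counts in the control libraries and 5795, 6862, 5845 and 5509 in the treated ones. In all, 1 treated library lay above the median control library, and the ranges overlapped for most of their length. Controls averaged 6665 ± 763 and treated libraries 6003 ± 592 (SD, *n* = 4 each). By edgeR the log2 fold change was -0.15, with a standard error of 0.092 and an adjusted p of 0.374, and its 95% interval of -0.36 to 0.05 holds both no change and a decrease to that lower bound.

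Within *Cnr1*, reads were also counted over a shorter annotated interval, Cnr1-203, of 10724 bp with 9.51% exonic bases. There the control libraries had 715, 963, 785 and 808 normalized reads and the treated ones 855, 971, 839 and 851. Over this shorter stretch the treated mean was the higher one (log2 difference 0.11, two-sided exact permutation p = 0.314), and the groups overlapped, while the whole gene had a difference below 0. The 3 genes whose log2 levels followed *Cnr1* most closely over the 8 libraries were *Eif4g1*, a translation initiation factor (Pearson r = 0.97), *Sec11a*, a signal peptidase subunit (0.96), and *Ppp6r1*, a phosphatase regulatory subunit (0.96), picked from all genes tested and given as a description.

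*Dagla* and *Daglb* encode the 2 diacylglycerol lipases, of which the alpha enzyme is known to supply most 2-AG at cortical synapses. *Dagla* (ENSMUST00000039327, chr19:10245265-10304877, minus strand, 20 exons) had 5293, 6027, 4304 and 5238 normalized counts in control libraries and 5548, 5021, 5147 and 5379 in treated ones. All 4 treated libraries lay inside the control range. Its log2 fold change was 0.02 (standard error 0.090, 95% interval -0.18 to 0.21, edgeR adjusted p = 0.937), and the coefficient of variation was 13.5% in controls and 4.47% in treated libraries.

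*Daglb* (ENSMUST00000045593, chr5:143464584-143505942, plus strand, 15 exons) had fewer counts, with 1864, 1765, 2028 and 1631 normalized counts in controls and 1754, 1727, 1508 and 1598 in treated libraries. No treated library lay above the median control, but the ranges overlapped. The log2 fold change was -0.15 (standard error 0.081, 95% interval -0.33 to 0.03, edgeR adjusted p = 0.329). Its interval shares 2309 bp with *Rac1*, a small GTPase gene on the opposite strand with a mean of 4854 counts and a log2 fold change of -0.02, and the counts do not separate the strands. Over the 10730 bp of the annotated interval Daglb-203 the controls had 290, 258, 343 and 327 normalized reads and the treated libraries 366, 271, 203 and 257, a log2 difference of -0.17 (two-sided exact permutation p = 0.4).

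Of the 3 hydrolases of 2-AG, *Mgll* encodes monoacylglycerol lipase, which is known to clear most brain 2-AG and sits largely in presynaptic terminals and astrocytes. *Mgll* (ENSMUST00000089449, chr6:88724828-88828360, plus strand, 8 exons) had 8301, 7874, 7498 and 7813 normalized counts in controls and 8732, 7854, 7395 and 8053 in treated libraries. The treated range enclosed the control range. A log2 fold change of 0.02 (standard error 0.064, 95% interval -0.12 to 0.17, edgeR adjusted p = 0.853) was obtained. *Mgll* was the longest of the 8 genes at 104 kb, and the 1297 genes tested of 100 to 300 kb had a median of 0.15, so that *Mgll* lay above 19.9% of the genes of its span.

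*Abhd6* encodes a serine hydrolase that sits postsynaptically and degrades 2-AG near where it is made (ENSMUST00000026313, chr14:8002966-8055861, plus strand, 9 exons). It had 633, 938, 732 and 744 normalized counts in controls and 952, 1086, 1035 and 922 in treated libraries. Control replicate 2 lay above the lowest treated library, and the other 3 controls lay below all 4 treated libraries. Controls averaged 762 ± 128 and treated libraries 999 ± 75.4 (SD, *n* = 4 each). On the log2 scale the fold change was 0.39, with a standard error of 0.117 and a 95% interval of 0.13 to 0.65. The unadjusted p was 0.00663 and the edgeR adjusted p 0.106, and the two-sided exact permutation p of this gene alone was 0.0571, where the smallest possible with 4 against 4 libraries is 0.0286.

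Among the alternatives run, *Abhd6* was the only one of the 8 for which the choice of tool or library decided the call. DESeq2 called it with its prior (log2 fold change 0.32, adjusted p = 0.0233) and without (0.40, adjusted p = 0.0232). Without control replicate 2, edgeR called it as well (0.51, adjusted p = 0.0271), in a fit that called 3.72% of all genes tested. *Abhd6* lay above 98.4% of the 3118 genes tested of 30 to 100 kb.

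Where in *Abhd6* the reads lay could be examined, because a second annotated transcript, Abhd6-202, extends the interval by 64 bp at its start and by 902 bp at its end (chr14:8055862-8056763), a stretch of 99.8% exonic bases. In that stretch the controls had 354, 278, 239 and 294 normalized reads and the treated libraries 271, 327, 315 and 341. The groups overlapped nearly throughout (log2 difference 0.11, two-sided exact permutation p = 0.429). The remaining 52896 bp, which hold 1401 exonic bases (2.65%), are the interval counted for the gene, with a difference of 0.40 on the same scale (p = 0.0571 by the same exact permutation test). Reads of this interval can come from its exons or its introns, which were not separated. The ratio of reads in the long interval to reads in the exonic stretch differed between groups by 0.29 on the log2 scale, which was within the spread between libraries (two-sided exact permutation p = 0.229, adjusted over the 3 genes compared 0.343). Counted over the whole of Abhd6-202, the controls had 988, 1216, 971 and 1038 and the treated libraries 1222, 1413, 1350 and 1264 normalized counts. On this wider interval every treated library lay above every control (log2 difference 0.32, two-sided exact permutation p = 0.0286, the smallest possible), and the edgeR adjusted p over all genes was 0.0786.

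*Abhd12* encodes a hydrolase of lysophosphatidylserine and of some 2-AG, known to be high in microglia (ENSMUST00000056149, chr2:150832493-150904741, minus strand, 13 exons). It had 8099, 7917, 7560 and 7494 normalized counts in controls and 7210, 7539, 7231 and 7468 in treated libraries. No treated library lay above the median control, but the ranges overlapped. Its log2 fold change was -0.08 (standard error 0.052, 95% interval -0.19 to 0.04, edgeR adjusted p = 0.422). Over the 10078 bp of the annotated interval Abhd12-207 (12.2% exonic) the log2 difference was -0.11, and over the 58318 bp of Abhd12-202 (0.953% exonic) it was 0.002, with two-sided exact permutation p = 0.0571 and 1.

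*Napepld* encodes the phospholipase D that releases anandamide and related N-acylethanolamines (ENSMUST00000060899, chr5:21662903-21701396, minus strand, 5 exons). It had the fewest counts of the 8, with 551, 426, 694 and 519 normalized counts in controls and 579, 528, 599 and 444 in treated libraries. All treated libraries lay inside the control range. Its log2 fold change was -0.03 (standard error 0.149, 95% interval -0.36 to 0.30, edgeR adjusted p = 0.936), the widest interval of the 8, and the gene was over 8 CPM in 6 of 8 libraries.

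*Faah* encodes fatty acid amide hydrolase, the main anandamide-degrading enzyme of brain (ENSMUST00000049095, chr4:115996669-116017926, minus strand, 15 exons). It had 2148, 2240, 2529 and 2676 normalized counts in controls and 2323, 2428, 2461 and 2408 in treated libraries. The treated libraries sat within the middle of the control range. Its log2 fold change was 0.004 (standard error 0.076, 95% interval -0.16 to 0.17, edgeR adjusted p = 0.985).

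Over the 8 annotated intervals of *Faah* the log2 differences ran from -0.25 to 0.24, and in 0 of them did the groups not overlap. The intervals shown here were picked after their values were seen, and their p-values were not adjusted over the 8. In the 11968 bp of Faah-205 (2.92% exonic) the controls had 501, 493, 658 and 612 normalized reads and the treated libraries 593, 618, 753 and 698, a log2 difference of 0.24 (two-sided exact permutation p = 0.143). In the 1723 fully exonic bases at the ends of the gene the difference was 0.005 (p = 1 by the same exact test). In the short interval Faah-203 (1763 bp, 33.2% exonic) the controls had 626, 555, 674 and 706 normalized reads and the treated libraries 518, 555, 528 and 588, a difference of -0.22 (two-sided exact permutation p = 0.0571). The groups overlapped in each of these stretches, and the ratio of Faah-205 to the exonic ends differed by 0.23 on the log2 scale (two-sided exact permutation p = 0.171, adjusted over the 3 genes compared 0.343).

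**Figure D2:**
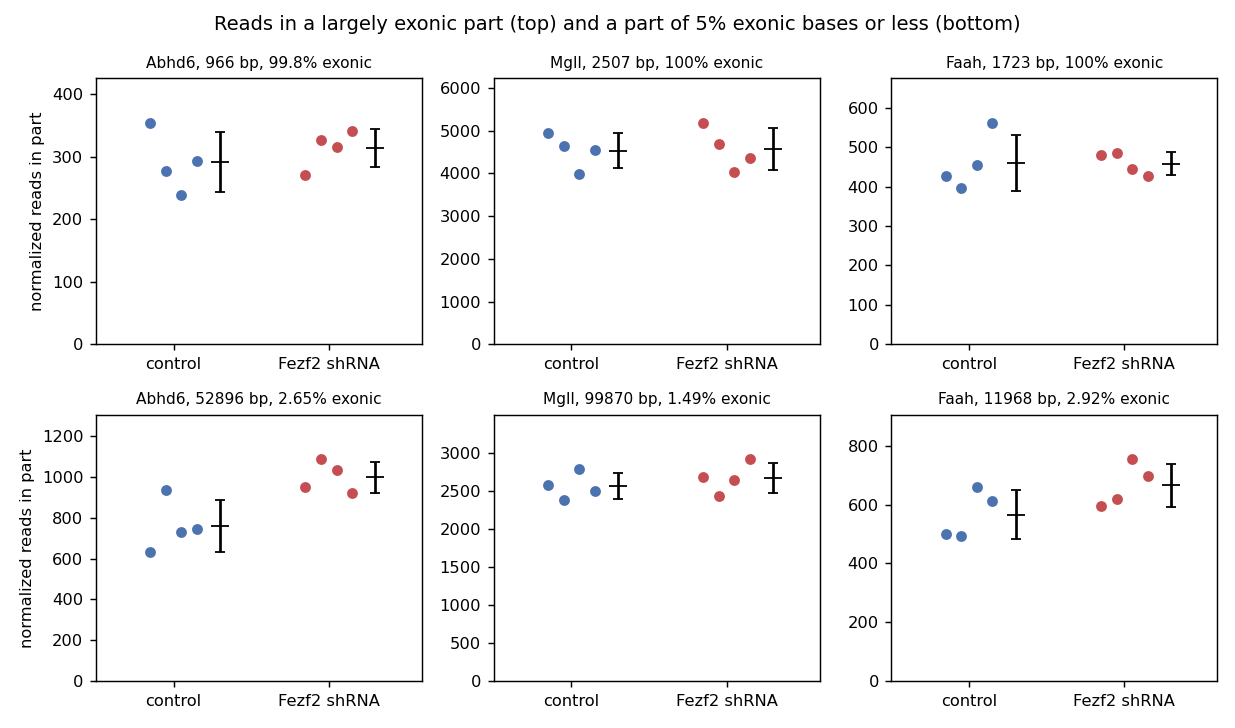
Normalized reads (y axis, from 0) in a stretch of at least 80% exonic bases (top) and in one of at most 5% (bottom) of *Abhd6*, *Mgll* and *Faah*, in control (blue) and *Fezf2 shRNA* (red) libraries, with mean and SD in black. The groups overlap in all 6 panels, and the difference is 0.40 on the log2 scale in the lower *Abhd6* panel and 0.11 in the upper one. The percentages are of bases and not of reads. The lower stretches also hold exons, and their exonic and intronic reads were not separated.

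In *Mgll*, whose stretches had the most reads, both kinds had means close to each other in the 2 groups. The 2507 exonic bases at its ends had 4533 ± 408 normalized reads in controls and 4570 ± 493 in treated libraries (SD, *n* = 4 each), and the 99870 bp of its interior (1.49% exonic) had 2559 ± 172 and 2666 ± 195. The log2 differences were 0.01 and 0.06 (two-sided exact permutation p = 0.914 and 0.457).

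Levels were set side by side per length in the control libraries. Per kb of annotated exon, *Abhd12* was highest with 3886 ± 144 normalized counts, followed by *Mgll* with 2036 ± 85.4 (SD, *n* = 4 each). *Cnr1* had 1148 ± 131 and *Dagla* 926 ± 125, and these neighbours overlapped, as did *Faah* with 627 ± 64.3 and *Abhd6* with 544 ± 91.1. *Daglb* had 392 ± 36 and *Napepld* 147 ± 29.9, each below every control value of the gene before it. Because intronic reads are in the counts, the order was not the same per kb of the whole interval, where *Cnr1* led with 275 ± 31.5 and *Abhd6* and *Napepld* overlapped at 14.4 ± 2.41 and 14.2 ± 2.89.

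Which library was highest or lowest differed among the 8 genes. Among controls, replicate 2 was the highest for *Cnr1*, *Dagla* and *Abhd6* and the lowest for *Napepld*, whereas replicate 3 was the lowest for *Cnr1*, *Dagla* and *Mgll* and the highest for *Daglb* and *Napepld*. Among treated libraries, replicate 1 was the highest for *Dagla*, *Daglb* and *Mgll* and the lowest for *Abhd12* and *Faah*. The coefficient of variation in controls ran from 3.72% for *Abhd12* to 20.3% for *Napepld*.

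In these libraries fold changes moved with the genomic span of a gene. Over all genes tested, the median on the log2 scale was -0.12 for the 2154 genes under 10 kb, -0.07 for 10 to 30 kb, 0.01 for 30 to 100 kb, 0.15 for 100 to 300 kb and 0.29 for the 407 genes over 300 kb. *Cnr1* and *Faah* are in the second of these classes, *Mgll* in the fourth and the other 5 genes in the third. With an offset for span the log2 fold changes were -0.11 for *Cnr1*, -0.02 for *Dagla*, -0.15 for *Daglb*, -0.08 for *Mgll*, 0.36 for *Abhd6*, -0.14 for *Abhd12*, -0.03 for *Napepld* and 0.06 for *Faah*. *Abhd6* kept most of its difference (edgeR adjusted p = 0.301), while the values of *Dagla* and *Mgll* changed sign. The offset was fitted to each library without regard to group. It therefore also takes out any difference between the groups that genes of like span share, whatever its cause, which was not tested.

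**Figure D3:**
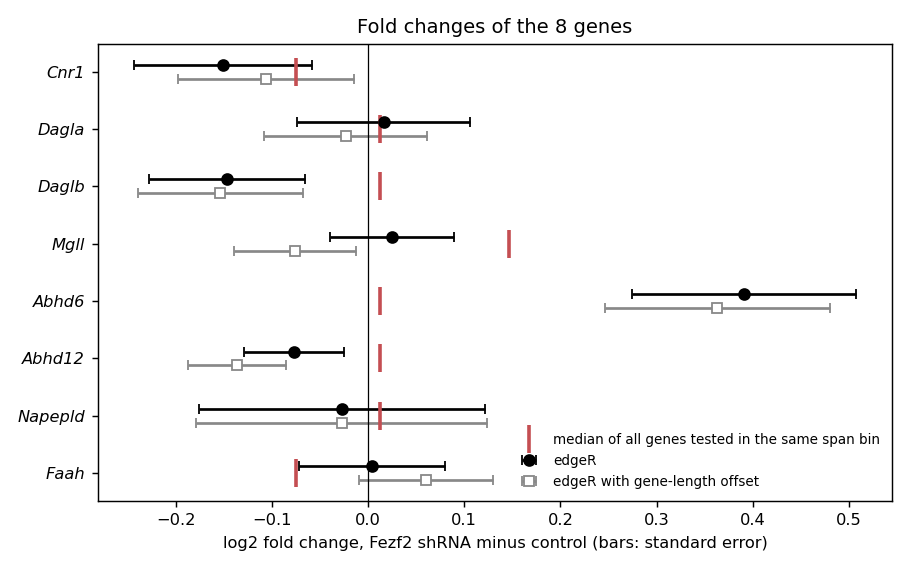
Log2 fold changes of the 8 genes (x axis, *Fezf2 shRNA* minus control, bars are standard errors), by edgeR (filled) and with an offset for genomic span (open), with the median of all genes tested of like span as a red tick. *Abhd6* stands at 0.39 and 0.36, and the other genes lie between -0.15 and 0.06.

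**Figure D4:**
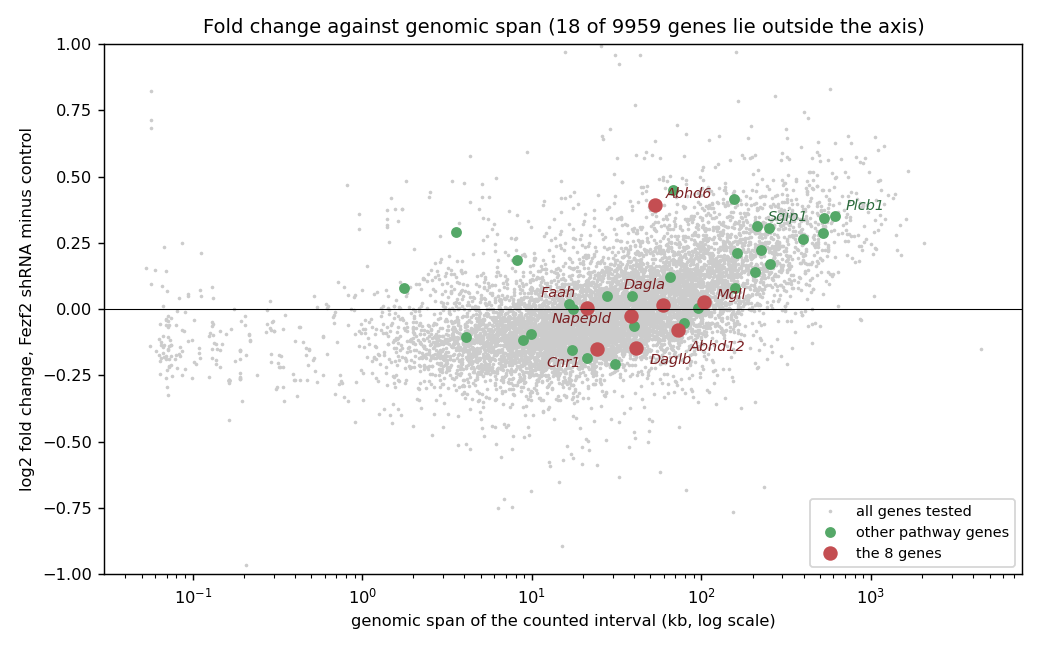
Log2 fold change (y axis, *Fezf2 shRNA* minus control) of the 9959 genes tested against genomic span in kb (x axis, log scale), with the 8 genes in red and the other pathway genes in green. The cloud climbs with span, from a median of -0.12 under 10 kb to 0.29 over 300 kb, *Plcb1* sits among the longest genes, and *Abhd6* sits above most genes of its span.

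Around the 8 genes stand the receptors, G proteins, channels and lipid carriers of the same pathway, of which 39 were listed and 30 could be tested. Of the 30, 2 rose past the threshold and 0 fell, against a background of 1.96% of all genes tested that rose. All background shares in this paragraph are over genes of every span, and the 30 were not set against genes of like span. In either direction, 90 of the 407 genes tested over 300 kb and 73 of the 1297 of 100 to 300 kb passed the threshold. *Plcb1* and *Sgip1*, the 2 that rose, belong to these classes. An unadjusted p under 0.05 was found for 12 of the 30, against 19.6% of all genes tested. The log2 fold change was above 0 in 22 and below 0 in 8, and the median was 0.10, or 0.03 with the offset for span. In 4 of the 30 every treated library lay above every control, against 7.41% of all genes tested. Both DESeq2 fits called 6 of the 30 (*Plcb1*, *Grm5*, *Sgip1*, *Cacna1b*, *Rims1* and *Pparg*), where they called 7.37% and 7.55% of all genes.

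The drive of 2-AG synthesis was represented by 8 genes tested, of which 1 rose. *Plcb1* (chr2:134786530-135399675), the phospholipase C that yields the diacylglycerol from which 2-AG is made, had 27630, 30430, 28250 and 25320 normalized counts in controls and 33840, 34940, 37050 and 36580 in treated libraries. All treated libraries lay above all controls (log2 fold change 0.35, standard error 0.074, edgeR adjusted p = 0.039). The gene spans 613 kb, and with the offset for span the log2 fold change was 0.03 (edgeR adjusted p = 0.895).

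Among 12 partners and effectors of CB1, 1 rose. *Sgip1* (chr4:102760135-102971983), whose protein binds CB1 and slows its internalization, had 9343, 9889, 9248 and 8743 normalized counts in controls and 11290, 10830, 12640 and 11450 in treated libraries. The groups did not overlap (log2 fold change 0.31, standard error 0.067, edgeR adjusted p = 0.0422), and with the offset for span, at 212 kb, the value was 0.12 (edgeR adjusted p = 0.47). *Cacna1b*, the pore subunit of the N-type calcium channel that CB1 inhibits, had the largest difference of this group, 0.41 (standard error 0.102, edgeR adjusted p = 0.0644), and 0.26 with the offset for span (edgeR adjusted p = 0.457). *Rims1*, an active-zone scaffold and the one with the most counts, had 0.29 (standard error 0.097, edgeR adjusted p = 0.142), and with the offset, at 519 kb, its sign turned to -0.01 (edgeR adjusted p = 0.966).

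Of 9 other lipid enzymes and carriers tested, 0 passed the threshold by edgeR or by DESeq2, and 1 had an unadjusted p under 0.05 by edgeR. *Fabp7*, a fatty acid binding protein of astrocytes and progenitors, had 431 ± 68.3 normalized counts in controls and 528 ± 90.5 in treated libraries (log2 fold change 0.29, edgeR adjusted p = 0.292, and 0.39 with the offset for span). *Gde1*, a phosphodiesterase on another route to anandamide and the one with the most counts, had 4555 ± 163 and 4088 ± 324 (-0.16, edgeR adjusted p = 0.227, and -0.09 with the offset).

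Of 7 other receptors for these lipids only *Pparg*, a nuclear receptor, was expressed strongly enough to be tested. *Pparg* had 534, 427, 518 and 471 normalized counts in controls and 767, 666, 551 and 676 in treated libraries, and the groups did not overlap (log2 fold change 0.45, standard error 0.116, edgeR adjusted p = 0.0749, and 0.39 with the offset for span). *Cnr2*, which encodes the CB2 receptor of immune cells, stayed below the filter with 59.4 ± 19.7 and 69.3 ± 8.95 normalized counts (SD, *n* = 4 each), and per kb of annotated exon it had 15.8 in controls, beside 1148 for *Cnr1*.

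**Figure D5:**
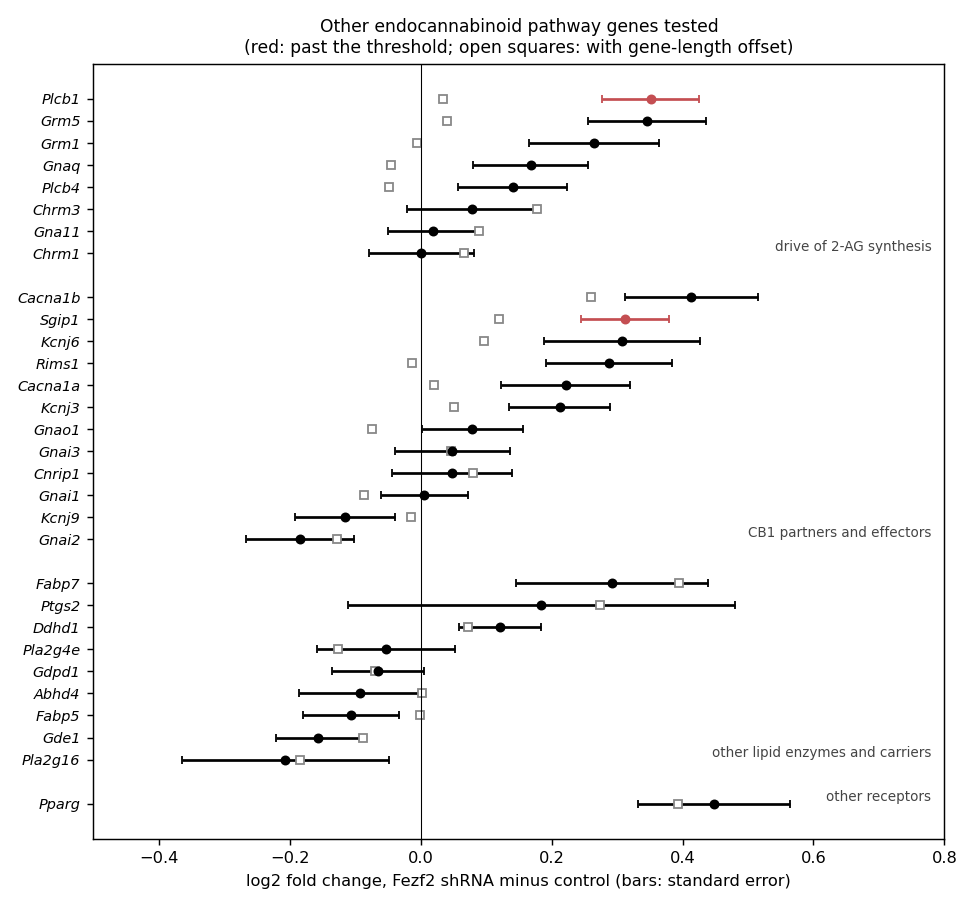
Log2 fold changes (x axis, *Fezf2 shRNA* minus control, bars are standard errors) of the 30 other pathway genes tested, grouped by role, with those past the threshold in red and the value with the offset for span as open squares. *Plcb1* (0.35) and *Sgip1* (0.31) are past the threshold, and their squares lie at 0.03 and 0.12.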

How the data were processed

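Total RNA of M1 was sequenced as stranded, paired-end libraries. The authors aligned the reads with TopHat2 2.1.1 to mm10 (GRCm38) and deposited raw counts per Ensembl transcript, made with bedtools 2.26.0 (multiCov). A second deposited table with the authors' own comparison (base means, log2 fold changes, standard errors, Wald statistics, p and adjusted p values) was not used.

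The deposited counts of 94647 transcripts were matched to GENCODE M21 (GRCm38, 91320 matched), and 1 transcript, that of the lowest Ensembl number, stood for each of 38031 genes. Transcripts without a match held 1.82% of all counts. Genes over 8 CPM in at least 4 libraries were tested with edgeR 4.0.16 (TMM, quasi-likelihood, Benjamini-Hochberg) in R 4.3.3, without covariates. DESeq2 1.42.0 was an alternative. For normalized counts, each library was scaled to the mean effective library size. The counts of nested transcripts were subtracted to give stretches of genes, each with a mean of at least 20 reads. For differences over transcripts and stretches, 1 was added to the reads, the sum was scaled by the effective library size and log2 was taken. They were tested by an exact two-sided permutation test (70 splits). The offset for span was a loess (span 0.3) of each library's log ratio to the mean library. The shRNA sequence came from the study's supplementary list.

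The 8 genes and the lists were chosen with earlier results of these data known. Beside the 8 genes and *Fezf2*, the text names the pathway genes past the threshold and, in each role, the gene with the largest log2 fold change and the one with the most counts, and the 3 genes most like *Cnr1*. *Rac1*, *Cnr2*, *Grm5*, the marker genes, and the transcripts shown for *Cnr1*, *Daglb*, *Abhd12* and *Faah* were named after their values were seen. The alternatives were other normalizations, filters and tools, the widest transcript, the offset, the replicate number as a block and each library left out. The edgeR fit and the offset for span were tested on simulated data, and the permutation test on constructed values. At these depths the replicate spread limits the precision of most values.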

Additional observations from a re-analysis of the deposited data

Results flagged for a closer look

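In 78 groups of 4 libraries examined for a single library far from the other 3 relative to the range of the 4, 2 were picked out, where about 5% would be by chance. *Kcnj9*, a subunit of the potassium channels that CB1 opens, had 3264 normalized counts in *Fezf2 shRNA* replicate 3, below the 3421 to 3434 of the other treated libraries. The gap is small in size, as the coefficient of variation of the 4 treated libraries was 2.45%. *Fabp5*, a carrier of anandamide, had 1691 normalized counts in control replicate 2, above the 1400 to 1442 of the other controls.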

How the results depend on the processing

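Among the 8 genes the count past the threshold was 0 under every alternative but DESeq2 with or without its prior and edgeR without control replicate 2, each of which called 1, *Abhd6* (log2 fold changes 0.32, 0.40 and 0.51), so the range over left-out libraries was 0 to 1. *Abhd6* ran from 0.31 to 0.51 with a library left out, and *Cnr1* from -0.22 to -0.09, *Daglb* from -0.19 to -0.08 and *Abhd12* from -0.09 to -0.06. The sign of *Dagla*, *Mgll*, *Faah* and *Napepld* was not settled. With library totals they were -0.00996 for *Dagla*, -0.00246 for *Mgll* and -0.0261 for *Faah*. With the offset for span *Dagla* was -0.0233 and *Mgll* -0.0760, and with a replicate block and the offset -0.0152 and -0.0780. With a library left out *Dagla* ran from -0.0567 to 0.0925, *Mgll* from -0.0188 to 0.0705, *Napepld* from -0.13 to 0.116 and *Faah* from -0.0456 to 0.0632. The stretches of *Mgll* (exonic, -0.0531 to 0.0680), *Abhd12* (interior, -0.0574 to 0.0299) and *Faah* (exonic, -0.0618 to 0.105) also crossed 0 then.

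Over all genes, 208 were past the threshold, and 103 with no filter, 84 at more than 1 CPM, 734 and 752 with DESeq2 with and without its prior, 2 with the offset for span, 90 with a replicate block and 2 with the block and the offset. Leaving out a library gave 0 (without control replicate 1) to 368 (without control replicate 2), with 4 and 130 without control replicates 4 and 3, and 13, 9 and 17 without *Fezf2 shRNA* replicates 1, 3 and 4. Of the other pathway genes 2 were past the threshold, and 1 with library totals (*Plcb1*), 0 with no filter, 0 at more than 1 CPM, 6 with each DESeq2 fit, 1 with the widest transcript (*Sgip1*), 0 with the offset, 1 with a replicate block (*Cacna1b*) and 0 with block and offset. The count was 0 without each of 6 libraries (control replicates 1, 3 and 4 and *Fezf2 shRNA* replicates 1, 3 and 4) and 3 without control replicate 2. The causes were not tested. Whether the replicate numbers pair the libraries was not settled, since 4 numbers are too few to decide it. The deviations of same-numbered libraries correlated by -0.13 to 0.31, and 2 of 4 controls correlated best with their own number. The block changed no call among the 8 genes. The medians by span with the widest transcript stayed within the spread between libraries.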
